A study of Mus musculus with 6 samples.

Results

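Il33, Car2, Pllp, Tmem88b, Gsn, Tspan2, Efnb3 and Rassf4 are 8 genes enriched in oligodendrocytes. They were listed apart from the genes of structural myelin proteins. They were followed across 6 bulk RNA sequencing libraries of mouse substantia nigra. They are 8 of the 55335 genes in the count files, all 8 were found by symbol, and all 8 passed the low-count filter. They were selected on the difference between the control and shDNAJB1 libraries in these same data, so that difference is given below as a description without a test.

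Oligodendrocytes wrap axons in myelin and support them metabolically. Beside the abundant myelin proteins, the mature cell makes a set of enzymes, membrane proteins, cytoskeletal regulators and signalling molecules. IL-33 is a nuclear cytokine that cells release on injury. Ephrin-B3, coded by Efnb3, is a membrane ligand of Eph receptors that is found in myelin, where it is known to limit axon growth. Carbonic anhydrase II, coded by Car2, is a classical enzyme marker of the lineage, and gelsolin severs and caps actin filaments.

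The libraries came from the substantia nigra of C57 mice. There were 3 controls, with the genotype WT in the labels, and 3 knockdown samples with the label shDNAJB1, where sh stands for short hairpin. Dnajb1 codes for a co-chaperone of the HSP40 class. The series asked which transcripts of this tissue change with the knockdown. Age, sex, the vector and the promoter of the hairpin, and whether the controls received a hairpin, are not given in the labels. Nor do they say whether each library is a different animal. Any p-value therefore measures only the spread between these libraries, which may be technical.

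Library totals ran from 24541386 to 38468363 counts. Levels are depth-scaled counts (CPM) after TMM scaling, and differences are log2 fold changes of shDNAJB1 against control from edgeR. Dnajb1 itself was at 59.8, 47.2 and 51.9 CPM in control 1, 2 and 3 and at 44.3, 52.4 and 52.5 CPM in shDNAJB1 1, 2 and 3. Its groups overlapped, and its difference was -0.09 (SE 0.13). Every direction below therefore refers to the label. The dopaminergic markers that define the tissue were present in every library, at a summed 1124 to 3804 CPM over 10 genes. Over 18870 tested genes, edgeR's quasi-likelihood test called 0% at an adjusted p under 0.05, with 1202 genes at an unadjusted p under 0.05 and a smallest adjusted p of 0.765. DESeq2's Wald test called 0.164% of 21367 genes, and limma-voom called 0 genes, with 1327 at an unadjusted p under 0.05.

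The promoters of the members with the largest differences are shown here because the members were chosen as a set that lies on the same side of the comparison. RefSeq (GRCm38.p6, the mm10 build) gave 10 windows for 6 of the 8 members, each with 250 bases before and 50 after a start site. The 4 printed run 5′ to 3′ along the gene, and for Il33 the first of its windows is shown. Capitals mark 4 motifs on both strands: a SOX core (ACAANG), an MYRF core (CTGGNAC), a GC box (GGGCGG) and a TATA box (TATAAA).
Rassf4, chr6:116673787-116674086, minus strand: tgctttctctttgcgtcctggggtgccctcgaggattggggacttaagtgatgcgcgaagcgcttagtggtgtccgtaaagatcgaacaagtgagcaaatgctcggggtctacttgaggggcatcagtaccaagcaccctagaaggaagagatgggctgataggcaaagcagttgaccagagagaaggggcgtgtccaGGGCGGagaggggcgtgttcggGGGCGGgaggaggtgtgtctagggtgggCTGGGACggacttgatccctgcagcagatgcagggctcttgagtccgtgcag
Pllp, chr8:94696193-94696492, minus strand: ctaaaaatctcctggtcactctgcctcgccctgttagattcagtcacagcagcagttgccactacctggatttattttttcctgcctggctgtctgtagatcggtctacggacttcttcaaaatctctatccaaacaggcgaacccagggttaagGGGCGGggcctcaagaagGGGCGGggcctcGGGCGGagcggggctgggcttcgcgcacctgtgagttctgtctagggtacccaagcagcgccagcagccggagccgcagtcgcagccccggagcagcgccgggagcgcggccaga
Tmem88b, chr4:155785825-155786124, minus strand: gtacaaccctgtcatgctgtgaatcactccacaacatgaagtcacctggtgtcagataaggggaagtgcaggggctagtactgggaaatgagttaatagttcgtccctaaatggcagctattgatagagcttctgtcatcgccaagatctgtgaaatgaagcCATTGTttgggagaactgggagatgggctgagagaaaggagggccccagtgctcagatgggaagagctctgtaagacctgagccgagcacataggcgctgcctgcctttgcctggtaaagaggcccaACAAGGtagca
Il33, chr19:29924863-29925162, plus strand: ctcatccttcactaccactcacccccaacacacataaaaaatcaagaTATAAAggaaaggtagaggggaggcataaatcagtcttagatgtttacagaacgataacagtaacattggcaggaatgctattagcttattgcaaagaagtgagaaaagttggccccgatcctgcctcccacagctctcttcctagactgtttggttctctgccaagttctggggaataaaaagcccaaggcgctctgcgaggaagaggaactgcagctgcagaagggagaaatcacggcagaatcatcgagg

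The Tmem88b window held 2 SOX cores, and the Rassf4 window held 1 MYRF core and 2 GC boxes. Pllp had 3 GC boxes and Il33 had 1 TATA box. A SOX core was present in 2 of the 10 windows, against 41.3% of all 32817 windows of this length. An MYRF core was present in 2 of 10, against 19.3%, a GC box in 5 of 10, against 35.6%, and a TATA box in 2 of 10, against 13.6%. Il33, Gsn and Tspan2 each gave more than 1 window, so the windows are not independent units. The windows with a TATA box were both from Il33, and every Gsn window had a GC box. The E-box letters CANNTG, read on both strands, were in 10 of 10 member windows and in 72.3% of all windows. E-box letters can overlap the other motifs. These counts describe letters only. Binding was not measured.

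Il33 was lower in each library labelled shDNAJB1 than in each control. The gene spans chromosome 19 from 29925114 to 29960718 on the plus strand of mm10 and has 2886 exonic bases. Il33 had 218, 173 and 197 CPM in control 1, 2 and 3 and 153, 131 and 103 CPM in shDNAJB1 1, 2 and 3. The groups did not overlap, and shDNAJB1 3 was the lowest library. The control mean was 196 ± 22.3 CPM and the shDNAJB1 mean 129 ± 25.04 CPM (SD, n = 3 each). The Il33 difference was -0.61 (SE 0.17), which is 65.6% of control with a 95% interval from 50.3% to 85.6%. In bulk tissue, fewer oligodendrocytes and less RNA per oligodendrocyte cannot be told apart. Astrocytes can also express Il33, and 12 of 12 astrocyte markers were measured, at a summed 4230 to 5521 CPM in controls and 3654 to 4682 CPM in shDNAJB1. Their part in the Il33 values was not tested.

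The 3 members tied to signalling at the membrane or below it are Efnb3, Tmem88b and Rassf4. Rassf4, a Ras-association domain adaptor, had the largest difference of the 8. It spans chromosome 6 from 116633008 to 116673952, minus strand. Rassf4 had 49.3, 49.8 and 62.2 CPM in the controls and 32.7, 29.4 and 24.8 CPM in shDNAJB1 1, 2 and 3. Its lowest control was 1.51 times its highest shDNAJB1 library, the widest gap among the 8, where the other members had ratios of 1.01 to 1.14. The means were 53.8 ± 7.32 and 29.0 ± 3.98 CPM (SD, n = 3 each), a difference of -0.89 (SE 0.15) or 53.9% of control (95% interval 42.5% to 68.4%).

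Efnb3 (chromosome 11, positions 69554092 to 69560205, minus strand) had one of the smallest differences. Its level was 222, 180 and 200 CPM in the controls and 159, 170 and 127 CPM in shDNAJB1 1, 2 and 3. The groups did not overlap, though the lowest control was only 1.06 times the highest shDNAJB1 library. Its difference was -0.40 (SE 0.14), or 75.6% of control (60.0% to 95.2%). Tmem88b (chromosome 4, positions 155781591 to 155785874, minus strand) codes for a membrane protein related to TMEM88, which binds Dishevelled in Wnt signalling. Tmem88b had 237, 194 and 211 CPM in the controls and 182, 142 and 108 CPM in the others. The shDNAJB1 libraries were spread more widely than the controls, 144 ± 37.1 against 214 ± 21.9 CPM (SD, n = 3 each), and the difference was -0.57 (SE 0.19).

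Car2, the enzyme of the set, converts carbon dioxide and water to bicarbonate. It lies on chromosome 3, positions 14886273 to 14900770, plus strand. Car2 had 323, 277 and 321 CPM in the controls and 259, 216 and 157 CPM in shDNAJB1 1, 2 and 3. Again every control lay above every shDNAJB1 library. The difference was -0.54 (SE 0.19), or 68.7% of control (51.1% to 92.3%). Red cells and choroid plexus also express Car2. The summed blood cell markers were 121 to 379 CPM in controls and 105 to 221 CPM in shDNAJB1 (5 of 5 measured), and those of choroid plexus and ependyma were 20.3 to 22.6 and 15.2 to 22.5 CPM (5 of 8 passed the filter). All 5 blood markers had lower mean values in shDNAJB1 (median difference -0.58), and 0 of them had separate groups. Ttr, the most abundant transcript of choroid plexus, was at 0.0513 to 5.07 CPM, and Folr1 had 0 counts in control 1 and shDNAJB1 2. The summed levels of both lists overlapped between groups, and their part in the Car2 values was not tested.

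Gsn, the actin-severing member (chromosome 2, positions 35256380 to 35307892, plus strand), had 92.1, 82.1 and 93.2 CPM in the controls. In shDNAJB1 1, 2 and 3 it had 75.6, 66.6 and 47.5 CPM. The Gsn controls were the tightest of the 8, with a coefficient of variation of 6.82%, against 22.7% in shDNAJB1. Its difference was -0.50 (SE 0.17), or 70.9% of control. Fibroblasts and microglia express Gsn as well. Mural cell and fibroblast markers summed to 169 to 272 CPM in controls and 204 to 377 CPM in shDNAJB1 over 10 of 10 genes, and microglia markers to 340 to 634 and 233 to 682 CPM over 12 of 12 genes. Both overlapped between groups, with shDNAJB1 1 the highest library in each, and their part in the Gsn values was not tested.

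Tspan2, a tetraspanin of the oligodendrocyte membrane (chromosome 3, positions 102734529 to 102801513, plus strand), had the smallest difference. It had 340, 289 and 305 CPM in the controls and 253, 265 and 205 CPM in shDNAJB1 1, 2 and 3. Its groups did not overlap, and the difference was -0.37 (SE 0.14), or 77.5% of control (62.1% to 96.7%). Of its 4755 exonic bases, 88 overlap the antisense gene Tspan2os, which had 3 to 19 counts per library.

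Pllp codes for plasmolipin, a MARVEL-domain membrane protein of myelinating cells (chromosome 8, positions 94674894 to 94696278, minus strand). It was the most variable member. Pllp had 114, 73.1 and 78.6 CPM in the controls and 72.2, 49.1 and 37.0 CPM in shDNAJB1 1, 2 and 3. The groups were barely separate, since control 2 was 1.01 times shDNAJB1 1. The difference was -0.75 (SE 0.26), with an interval from 39.0% to 90.7% of control. The antisense gene Gm45767 overlaps 1128 of the 2083 exonic bases of Pllp and had 349 to 593 counts per library, against 1369 to 4158 for Pllp. The strand setting of the counting is not given, so reads of this pair may be shared and the Pllp values are uncertain.

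**Figure D1:**
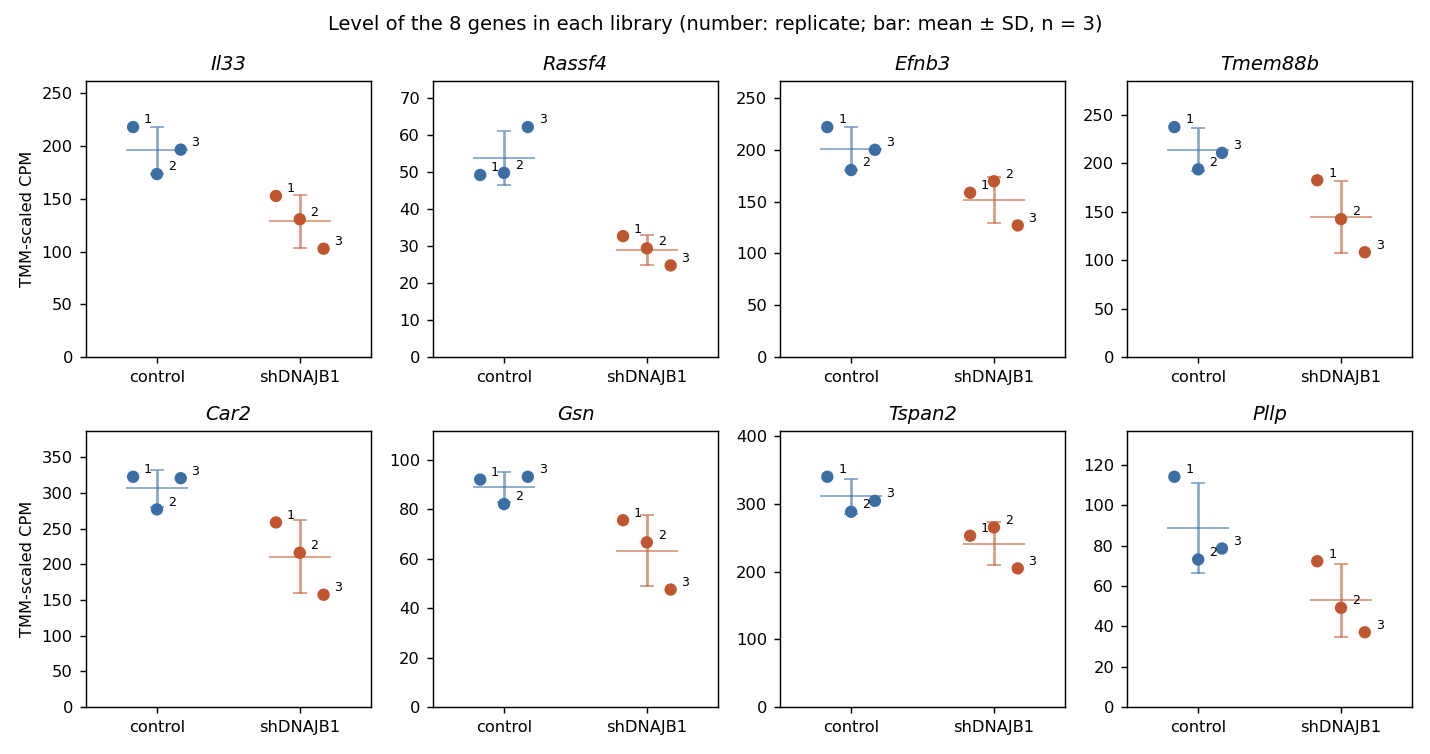
TMM-scaled CPM of each of the 8 genes (vertical axis, from 0) in the 3 control and 3 shDNAJB1 libraries; points are libraries with their replicate number, and bars are means ± SD (n = 3). In each panel the 3 control points lie above the 3 shDNAJB1 points, and shDNAJB1 3 is the lowest point.

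All 8 members had separate groups on the lower side, beside 7.06% of all 18870 tested genes with separate groups on the lower side and 6.98% on the higher side. Because the members were chosen on this comparison, nothing is read from that count. Their median difference was -0.56, beside 0.01 over all tested genes. Counting error was 0.898% to 3.52% per member and library, well under the coefficients of variation of 6.82% to 33.9% within groups.

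The order of libraries was much the same from gene to gene. The library shDNAJB1 3 was the lowest of the 6 for 8 of 8 members. Control 1 was the highest for 6 members and control 3 for 2, Rassf4 and Gsn. Within the controls, control 2 was the lowest for 7 members. Within the libraries labelled shDNAJB1, replicate 1 was the highest for 6 members and replicate 2 for Tspan2 and Efnb3.

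Leaving out libraries changed the sizes. The sign could hardly change, since for each member every control lay above every shDNAJB1 library, so nothing is read from it. Without shDNAJB1 3 the median of the 8 differences was -0.38, and Gsn moved by more than 1.5 times, to -0.325. Without both control 1 and shDNAJB1 3, a setting chosen after seeing the data, the median was -0.31. Rassf4 stayed at -0.84, while Pllp was at -0.315, Tspan2 at -0.187, Efnb3 at -0.206, Gsn at -0.295, Tmem88b at -0.309, Car2 at -0.325 and Il33 at -0.378.

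Set per kilobase of exon, so that genes can be compared, the levels in controls spanned from 127 ± 10.7 CPM per kb for Car2 down to 5.84 ± 0.795 for Rassf4 (SD, n = 3). Il33 at 67.9 ± 7.71, Tspan2 at 65.4 ± 5.58, Efnb3 at 63.1 ± 6.52 and Tmem88b at 61.6 ± 6.32 CPM per kb followed Car2. Among these 4, genes next to each other in this order differed by less than their spread. Pllp, at 42.5 ± 10.7, and Gsn, at 28.2 ± 1.93 CPM per kb, came next, above Rassf4. In the shDNAJB1 libraries Car2 was again first, at 87.1 ± 21.1 CPM per kb, and Rassf4 last, at 3.15 ± 0.432. Il33 was in the second place in controls and the fourth in shDNAJB1, at 44.6 ± 8.68 CPM per kb, within the spread of Tspan2, Efnb3 and Tmem88b.

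The rest of the oligodendrocyte programme was measured in lists of genes that leave out the 8. These lists were chosen with earlier results of these data known, so nothing is read from their counts. Structural myelin genes had lower values in 11 of 11 cases, with a median difference of -0.47, and 0 of them passed edgeR's test over all genes (7 at an unadjusted p under 0.05). Groups were separate for 7 of the 11. Over all tested genes 49.2% had lower values and 7.06% had separate groups on the lower side. Opalin, a membrane glycoprotein of oligodendrocytes, was at 47.3 ± 6.78 CPM in controls and 26.7 ± 8.37 CPM in shDNAJB1 (SD, n = 3 each). Ermn, the cytoskeletal protein ermin, was at 257 ± 10.6 and 177 ± 33.7 CPM. The abundant Mbp and Mobp had differences of -0.22 (SE 0.26) and -0.15 (SE 0.24) with overlapping groups.

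Genes of myelin lipid synthesis and oligodendrocyte regulators had lower values in 14 of 14 cases, with a median of -0.45. Single differences ran from -0.73 to -0.05, and groups were separate for 8 of the 14. Again 0 passed edgeR's test over all genes, with 8 at an unadjusted p under 0.05. Enpp6, a choline phosphodiesterase of newly formed oligodendrocytes, was at 28.3 ± 0.671 and 17.1 ± 3.53 CPM. Fa2h, which hydroxylates the fatty acids of myelin galactolipids, was at 86.4 ± 7.93 and 56.2 ± 8.14 CPM. Ugt8a, the galactosyltransferase of that pathway, was at 167 ± 10.8 and 110 ± 19.0 CPM, and the transcription factor gene Myrf at 157 ± 3.26 and 109 ± 14.8 CPM. Olig1 overlapped between groups, at 147 ± 25.1 and 116 ± 32.6 CPM. Precursor markers were divided, with 4 of 10 lower and a median of 0.08. Pdgfra, the growth factor receptor of precursors, was at 72.2 ± 10.3 and 62.7 ± 4.94 CPM.

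The members were then set against structural myelin of the same library, as log2 CPM minus the mean log2 CPM of the 11 myelin genes. The median of the 8 differences was then -0.11, against -0.56 without this reference, and 6 of 8 were negative. The myelin mean itself was 9.03 ± 0.117 in controls and 8.56 ± 0.354 in shDNAJB1 (log2 CPM, SD, n = 3 each). Relative to it, Rassf4 was at -3.53, -3.28 and -3.06 in controls and -3.84, -3.76 and -3.54 in shDNAJB1 1, 2 and 3, a difference of -0.42. Il33 had a difference of -0.15, Tmem88b of -0.12 and Car2 of -0.10, and in these 4 genes the groups did not overlap. For Rassf4 and Il33 they were only just apart, at -3.53 against -3.54 for Rassf4 and -1.48 against -1.49 for Il33. On this scale the groups were separate on the lower side for 0.329% of all 18870 tested genes and on the higher side for 34.6%. The reference itself is lower in shDNAJB1, so the median difference of all tested genes is 0.47 here. The members were selected on the group difference, and nothing is read from their count. Pllp (-0.30) and Gsn (-0.05) overlapped. Tspan2 and Efnb3 had positive differences, 0.10 and 0.06. Both genes were below their controls in shDNAJB1 1 and above them in shDNAJB1 2 and 3.

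**Figure D2:**
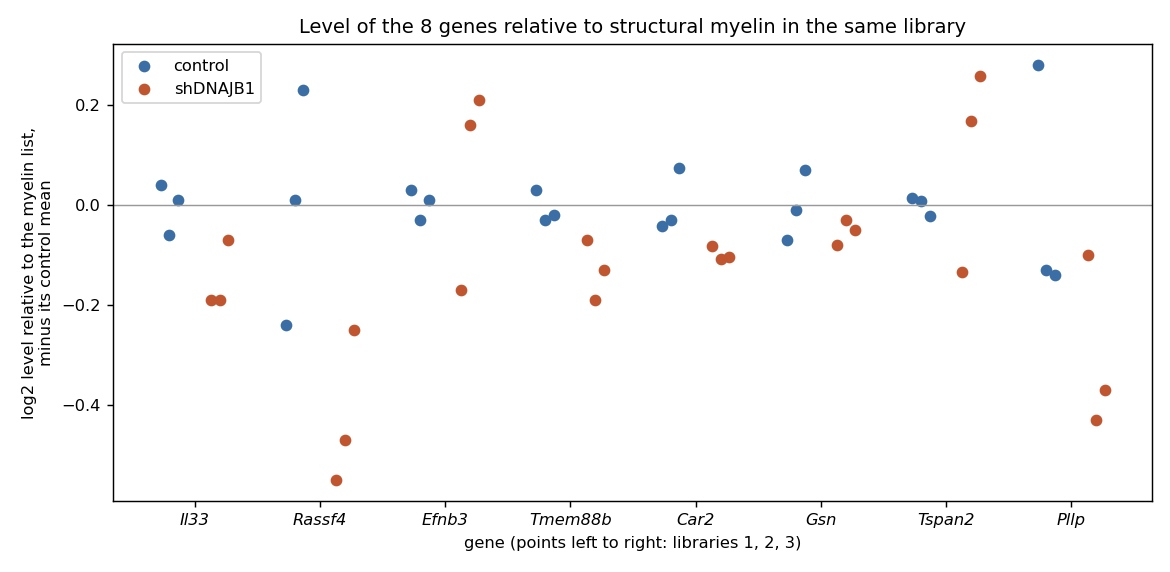
Level of each gene relative to the mean log2 CPM of 11 structural myelin genes in the same library, minus its control mean (vertical axis, log2); points are libraries 1, 2 and 3 from left to right in each group. Rassf4, Il33, Tmem88b and Car2 keep separate groups, while Tspan2 and Efnb3 lie on both sides of 0 in the shDNAJB1 libraries.

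The relatives and partners of each member were taken as further lists without the 8. In edgeR's test over all genes 0 genes of the lists that follow passed. These lists too were chosen with earlier results known. Beside them, 49.2% of all tested genes had lower values, and 7.06% and 6.98% had separate groups on the lower and higher side. For IL-33, the receptor gene Il1rl1 was near the detection limit, with 4 to 18 counts per library, and did not pass the filter. Of 11 tested genes of IL-33 and IL-1 family signalling 6 were lower, with a median of -0.03 and 1 gene at an unadjusted p under 0.05. Il1rap, the shared co-receptor gene, was at 76.5 ± 5.53 and 66.9 ± 1.44 CPM. Il1r1, the IL-1 receptor, had 5.79, 6.16 and 5.29 CPM in the controls and 14.4, 9.94 and 8.82 CPM in shDNAJB1 1, 2 and 3, a difference of 0.94 (SE 0.22). Tollip and Irak1, adaptor and kinase genes of the pathway, had overlapping groups at 156 ± 8.33 and 142 ± 14.6 CPM and at 55.2 ± 4.89 and 59.3 ± 4.87 CPM.

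Ephrins and Eph receptors other than Efnb3 had 9 of 20 tested genes lower and a median of 0.10, with 2 genes at an unadjusted p under 0.05. The 3 genes with the highest CPM over all 6 libraries were the receptor genes Epha5, at 119 ± 16.7 and 124 ± 25.2 CPM, Epha4, at 85.4 ± 6.44 and 72.0 ± 13.6 CPM, and Epha10, at 63.9 ± 12.8 and 72.2 ± 5.47 CPM. All 3 overlapped between groups. In controls alone Ephb1, at 72.4 ± 8.65 CPM, lay above Epha10. Ephb2 was at 27.4 ± 1.67 and 22.1 ± 2.42 CPM with separate groups, and the ligand gene Efnb2 at 12.8 ± 2.00 and 24.8 ± 14.0 CPM with overlapping groups.

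RASSF genes other than Rassf4 and the Hippo kinase module had 13 of 18 genes lower, with a median of -0.09 and 3 genes at an unadjusted p under 0.05. Rassf2, the RASSF gene of the list with the highest CPM, was at 113 ± 6.65 and 94.9 ± 15.9 CPM, and Rassf8 at 61.7 ± 7.99 and 52.9 ± 2.18 CPM, both with overlapping groups. Lats1, a Hippo pathway kinase, overlapped at 52.4 ± 9.88 and 55.5 ± 5.19 CPM. Rassf1 lay on the other side from Rassf4, at 8.93 ± 1.18 and 14.0 ± 2.95 CPM with separate groups. Rassf10 was near the floor, at 0.286 ± 0.159 and 0.964 ± 0.527 CPM.

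Tmem88, the paralog of Tmem88b, was barely present, at 0.437 ± 0.226 and 0.564 ± 0.292 CPM. The Dishevelled genes were at 66.8 ± 2.41 and 76.7 ± 4.75 CPM for Dvl1, 14.0 ± 2.05 and 19.4 ± 3.11 CPM for Dvl2, and 53.3 ± 2.46 and 53.7 ± 3.02 CPM for Dvl3. All 4 genes of this list had higher values in shDNAJB1, with separate groups for Dvl1 and Dvl2 and 1 gene at an unadjusted p under 0.05.

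Carbonic anhydrases other than Car2 had 8 of 12 tested genes lower, with a median of -0.11 and 0 at an unadjusted p under 0.05. Car10, a catalytically inactive relative, was at 59.6 ± 15.6 and 47.0 ± 7.13 CPM. Car14, a membrane-bound form, was at 41.0 ± 1.17 and 30.9 ± 11.3 CPM, and Car11 at 39.5 ± 1.60 and 41.2 ± 1.99 CPM. The groups overlapped for each. Car12 and Car3, with the smallest unadjusted p, were low, at 0.948 ± 0.201 and 2.72 ± 2.36 CPM and at 0.506 ± 0.461 and 1.22 ± 0.743 CPM.

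The gelsolin family and actin turnover genes were evenly divided, with 7 of 14 lower, a median of 0.00 and 1 gene at an unadjusted p under 0.05. Cfl1, the main cofilin, was at 424 ± 73.2 and 380 ± 52.7 CPM, Cfl2 at 150 ± 20.2 and 132 ± 12.96 CPM, and Dstn, which codes for destrin, at 140 ± 8.94 and 144 ± 11.9 CPM. These 3 overlapped between groups. Svil, which codes for supervillin, was at 12.4 ± 1.63 and 16.2 ± 1.84 CPM with separate groups on the higher side, and so was the low Vil1, at 0.671 ± 0.145 and 1.23 ± 0.423 CPM.

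Tetraspanins other than Tspan2 had 17 of 24 tested genes lower, with a median of -0.13 and 3 genes at an unadjusted p under 0.05. Tspan14 was at 27.3 ± 2.34 and 17.2 ± 3.50 CPM and Tspan9 at 41.0 ± 7.57 and 26.97 ± 2.76 CPM, both with separate groups. The 3 with the highest CPM over all libraries were Tspan7, at 569 ± 101 and 497 ± 24.6 CPM, Cd81, at 348 ± 43.4 and 341 ± 75.3 CPM, and Tspan3, at 287 ± 46.9 and 278 ± 31.1 CPM. These 3 overlapped.

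The MAL family of Pllp had 7 of 13 genes lower, with a median of -0.02 and 1 gene at an unadjusted p under 0.05. That gene was Mal, itself a myelin protein gene and also on the structural list, at 525 ± 61.1 and 403 ± 65.4 CPM with separate groups. Cmtm5, another member with a MARVEL domain, was at 48.1 ± 4.86 and 37.8 ± 8.76 CPM with overlapping groups. Cmtm4, at 124 ± 10.4 and 123 ± 36.2 CPM, and Mal2, at 61.4 ± 9.496 and 66.3 ± 30.03 CPM, overlapped.

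**Figure D3:**
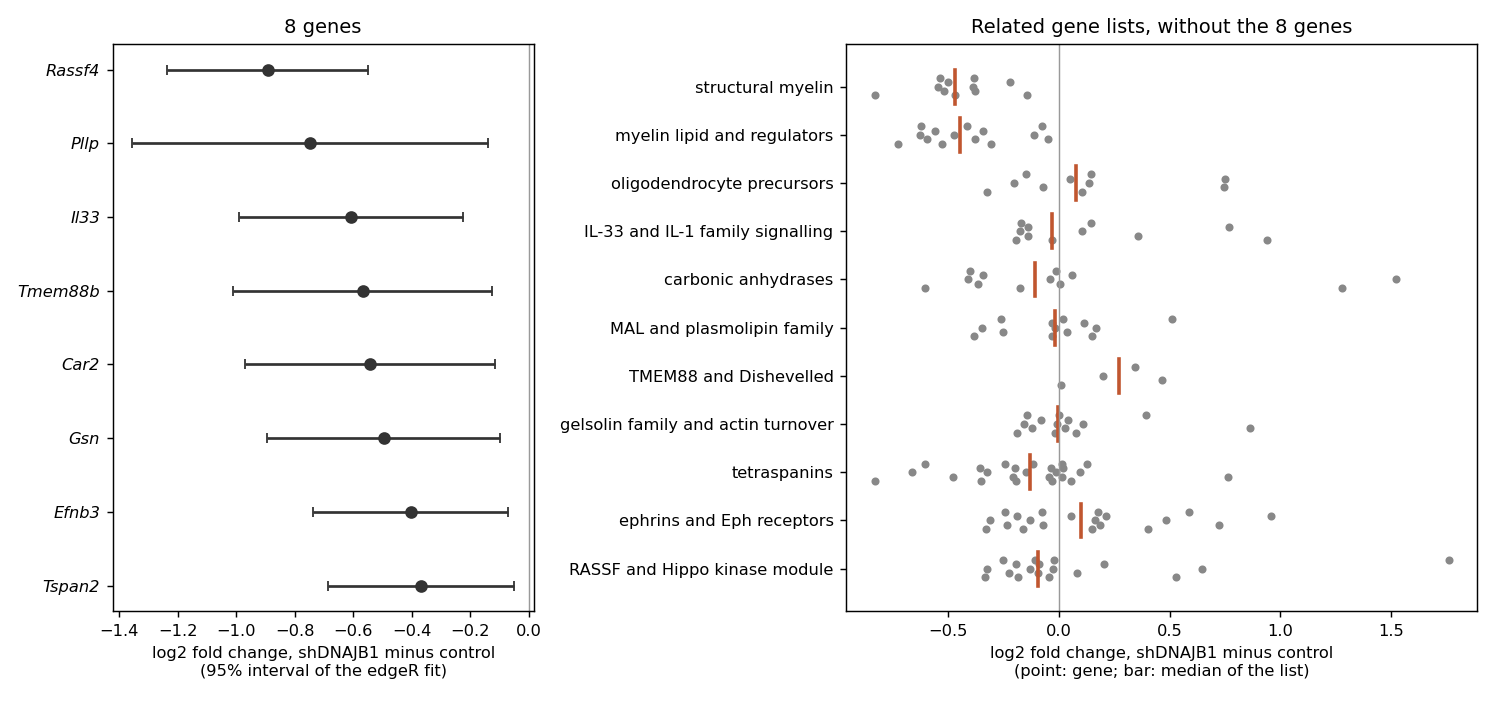
Left, log2 fold change of shDNAJB1 against control for the 8 genes with the 95% interval of the edgeR fit, as a description, since the genes were selected on it. Right, the same quantity for single genes (points) of related lists without the 8 genes, with the median of each list (bar); the 2 mature lineage lists have medians of -0.47 and -0.45, and the family lists lie between -0.13 and 0.27.

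To describe how the members varied beside the group difference, each log2 level was taken as its deviation from the mean of its group, and Pearson's r was computed over the 6 libraries. These libraries share their scaling, and the spread of the shDNAJB1 group, with replicate 3 lowest, carries much weight. The 28 pairs of members had r from 0.42 to 0.99. Car2 and Gsn were the closest pair (0.994), followed by Tspan2 and Efnb3 (0.992) and by Il33 and Tmem88b (0.983). Rassf4 had the lowest values, with 0.42 to Pllp, 0.44 to Tspan2, 0.47 to Efnb3 and at most 0.80, to Gsn.

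The mean deviation of the 8 had r of 0.992 with the mean of structural myelin and 0.978 with that of lipid and regulator genes, and -0.17 with precursor markers. With other lists it was 0.94 for GABAergic neurons, 0.84 for choroid plexus and ependyma, 0.74 for endothelium, 0.57 for microglia, 0.41 for mural cells and fibroblasts, 0.30 for dopaminergic neurons, 0.02 for blood cells and -0.03 for astrocytes. For the family lists it ran from -0.01 for RASSF and Hippo genes to 0.66 for carbonic anhydrases, apart from -0.90 for ephrins and Eph receptors, whose single genes had a median r of -0.20. GABAergic markers summed to 2226, 1884 and 1695 CPM in control 1, 2 and 3 and to 2321, 1389 and 921 CPM in shDNAJB1 1, 2 and 3 (10 of 10 measured), so that shDNAJB1 3 was the lowest library there too. Among them Gad1, which codes for a GABA-synthesizing enzyme, was at 522 ± 80.6 and 394 ± 433 CPM. Dopaminergic markers were also lowest in shDNAJB1 3, at 1124 CPM, and highest in control 2, at 3804 CPM. Their part in the member values was not tested.

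**Figure D4:**
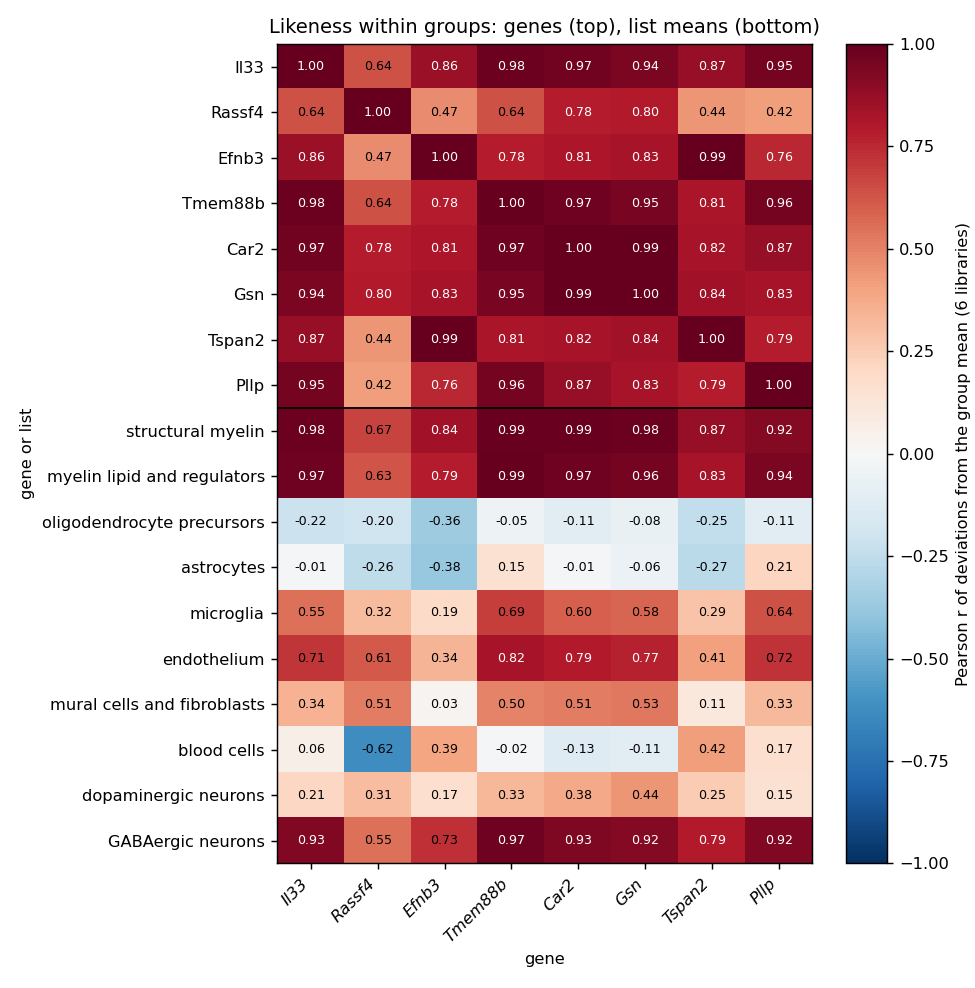
Pearson r of deviations from the group mean over 6 libraries (colour and number), between the 8 genes (upper block) and between each gene and the mean of marker lists (lower block). Rassf4 has the lowest values with the other genes, and the rows of structural myelin and GABAergic neurons are high for most genes.

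Among 11578 named genes with a mean of at least 5 CPM, the 10 closest to the mean of the 8 had r of 0.993 to 0.997. They were Vstm2b, Slc30a3, Desi1, Bloc1s5, Trap1, Manba, Sgms1, Hopx, Cryab and Trf. The closest, Vstm2b, was at 21.6 ± 3.69 CPM in controls and 16.4 ± 5.65 CPM in shDNAJB1. Slc30a3 followed, at 12.45 ± 6.30 and 6.91 ± 6.44 CPM. Manba had a higher mean in shDNAJB1, at 17.45 ± 0.705 and 19.1 ± 1.83 CPM. Trf, which codes for transferrin and is strongly expressed in oligodendrocytes, was at 898 ± 82.6 and 606 ± 155 CPM. Cryab, which codes for the chaperone alpha-B crystallin, was at 131 ± 7.87 and 103 ± 16.3 CPM, and Sgms1, a sphingomyelin synthase gene, at 58.1 ± 5.35 and 56.2 ± 9.58 CPM. By single members, the 3 closest genes were Dync1i1, Nxt2 and Bloc1s5 for Il33, Slc9a3r2, Pdlim1 and the myelin gene Mag for Car2, and Cptp, Fbxo6 and Ltv1 for Pllp. They were Apoo, Cnih4 and Taldo1 for Tmem88b, Dffa, Gnpnat1 and Stard3nl for Gsn, and Sypl, Irx2 and Prkg2 for Tspan2. For Efnb3 they were Nrip2, Tmem185b and, as for Tspan2, Prkg2, and for Rassf4 they were Zfp652, Snx33 and Fbxo3. All of these had r of at least 0.9927. How often such values arise among unrelated genes over 6 libraries was not tested. Of the 10 genes closest to the mean of the 8, 9 had lower values in shDNAJB1. So did 20 of the 24 closest to single members, beside 49.2% of all tested genes. Prkg2 is counted for both Tspan2 and Efnb3 in the 24, and Bloc1s5 is in both sets. Nothing is read from these counts, since the genes were picked by likeness to members selected as lower. The differences of these genes ran from -0.87 for Slc30a3 to 0.34 for Gnpnat1.

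The summed level of the 8 genes was 1318 to 1596 CPM in controls and 810 to 1186 CPM in shDNAJB1. Structural myelin summed to 15560 to 16740 and 9122 to 16390 CPM, with overlapping groups, since shDNAJB1 1 reached 16390 CPM. Mbp alone was at 7210 CPM in that library. The mean log2 CPM of the same 11 genes had separate groups, at 8.92 to 9.15 in controls and 8.17 to 8.87 in shDNAJB1. Lipid and regulator genes summed to 907 to 978 and 569 to 785 CPM. Astrocyte markers were lower in 7 of 12 cases and higher in 5, with a median of -0.15 and separate groups for 2. The 2 with the highest CPM were Slc1a2, a glutamate transporter gene, at 1860 ± 222 and 1427 ± 156 CPM with separate groups, and Aldoc, an aldolase gene, at 1131 ± 188 and 933 ± 276 CPM with overlapping groups. Endothelial markers summed to 489 to 527 and 456 to 765 CPM. Precursor markers summed to 357 to 421 and 363 to 373 CPM.

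**Figure D5:**
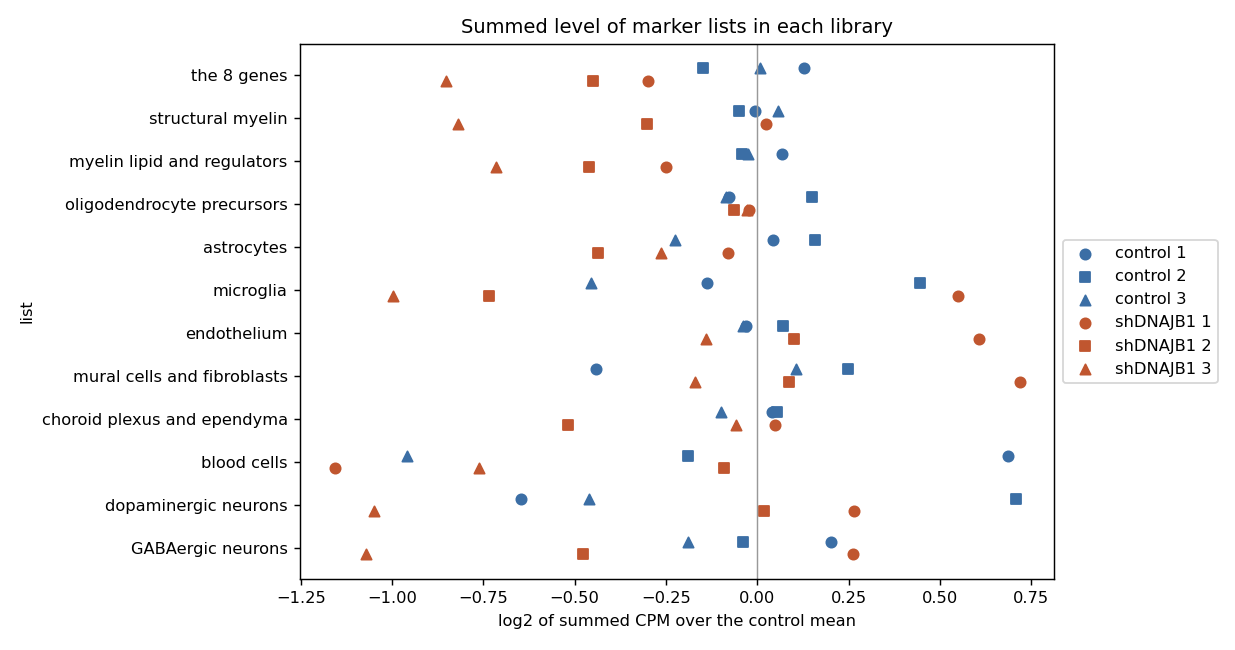
Summed CPM of each marker list in each library as log2 over the control mean (horizontal axis); colour is the group and the symbol is the replicate. The 8 genes and the lipid and regulator list have separate groups, and shDNAJB1 3 is the lowest library for both. It is also the lowest for structural myelin, microglia, endothelium, dopaminergic and GABAergic markers.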

How the data were processed

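Trizol-isolated total RNA went into stranded TruSeq libraries, per the labels' protocols. What the authors deposited is 1 file per library with unnormalized counts by Ensembl identifier. FastQC 0.11.5, STAR 2.5.3a, Cuffnorm, DESeq 1.16.1 and mm10 are named in the submitters' processing notes. Not given in the sources used here are the counter, its annotation release and its strand setting. Symbols, positions and exon lengths came from GENCODE M21 on mm10, which matched 55154 of 55335 identifiers.

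Groups came from the titles. After the filterByExpr step (at least 10 counts, total at least 15) and TMM scaling, all 6 libraries entered 1 quasi-likelihood fit in edgeR 4.0.16 (R 4.3.3). P-values were adjusted by Benjamini-Hochberg over all tested genes, with a threshold of 0.05. The SE was the log2 fold change divided by the square root of F, and intervals are 95% from the t distribution. The biological coefficient of variation was 24.1%. DESeq2 1.42.0 and limma 3.58.1 were alternatives, with other scalings and filters, leave-one-out fits, a replicate block and a myelin reference.

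The members and lists were chosen with earlier results of these data known. Named genes were the members, Dnajb1, in each family list the 3 with the highest mean CPM over all libraries and the 2 with the smallest unadjusted p, in each marker list the 2 with the highest, and the closest genes by likeness. Some genes that this rule names are not reported here. Tmem88, Il1rl1, Ephb1, Ttr, Folr1 and the overlapping antisense genes were named after their values were seen.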

Additional observations from a re-analysis of the deposited data

How the results depend on the processing

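The members were selected on the difference between control and shDNAJB1 and had separate groups. A negative sign was therefore nearly fixed in advance under rescaling or leaving out libraries. Over 15 alternatives for each of the 8 members, 118 of 120 differences were negative, and nothing is read from this count. The 2 exceptions were Tspan2 (0.097) and Efnb3 (0.061) relative to structural myelin. That reference, which measures a different quantity, moved the median of the 8 from -0.56 to -0.11. On leaving out 1 library the median was between -0.735 (shDNAJB1 1 left out) and -0.383 (shDNAJB1 3 left out). DESeq2's Wald test called 35 genes (0.164% of those it tested), 13 of them higher, where edgeR called 0. The cause of this gap was not tested. Rassf4 was the 1 member among the 35. It was selected on this same difference, so nothing is read from its call. The other 13 alternatives called 0 genes, with smallest adjusted p from 0.0601 to 0.972. Genes at an unadjusted p under 0.05 numbered 1202, against 2514 without shDNAJB1 1, 751 without shDNAJB1 2, 757 without shDNAJB1 3 and 687 without both control 1 and shDNAJB1 3. Libraries with the same replicate number did not deviate together (r of 0.0234, -0.0405 and 0.0981), and the replicate block gave 0 genes, 1458 at an unadjusted p under 0.05 and a median of -0.58. The spread between 3 libraries a group, not counting error, sets the precision.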
